A study of Mus musculus with 12 samples.

Results

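The transcripts of 10 genes of the p53 pathway were followed in mouse kidney and blood cells after renal ischemia-reperfusion injury (IRI). They were Trp53, which encodes p53 itself, and Cdkn1a, Mdm2, Ccng1, Trp53inp1, Gdf15, Zmat3, Gadd45a, Gadd45b and Phlda3. A gene was included when its symbol stood in the count tables, whatever its level, and all 10 were found among 50433 symbols for renal tubular epithelial cells (TECs) and 50434 symbols for neutrophils (PMN). Wild-type male C57BL/6J mice of 8 to 12 weeks had both renal pedicles clamped for 35 minutes and received an alanyl-glutamine dipeptide at 0.5 g/kg or saline, named vehicle here. Every mouse had IRI, so that all 4 groups share the injury and no library of uninjured mice was analysed here. Cells were taken 24 hours after IRI, and each of the 4 groups (TEC vehicle, TEC glutamine, PMN vehicle, PMN glutamine) had 3 libraries. TECs were sorted from kidney as CD45-negative and Prominin-1-positive cells, and PMN came from blood. The sources give the time of glutamine differently, as 4 hours after reperfusion for the treatment experiments and as 15 minutes after it for the TEC gene list. The comparison asked whether glutamine changed these transcripts in injured TECs and in circulating PMN.

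The protein p53 is a transcription factor that is stabilised by DNA damage, low oxygen and oxidative stress. It binds paired copies of a short palindromic half-site near its target genes, and those targets halt the cell cycle, repair DNA, change metabolism or start cell death. Mdm2, itself a target, marks p53 for degradation and so closes a feedback loop. In the injured renal tubule, cell cycle arrest through Cdkn1a (p21) is known as an early response that can protect cells from dividing with damaged DNA. In neutrophils, which no longer divide, Cdkn1a is known for roles in survival.

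Promoter windows from RefSeq (GRCm38.p6) were read for the 8 genes with an entry, from 250 bases before to 50 bases after each annotated start. Zmat3 and Trp53inp1 had none in the table. Sequences are shown for Cdkn1a, Mdm2 and Trp53, the genes on which the results below turn. Capitals mark matches to the 10-base p53 half-site consensus, which reads the same on both strands. The Cdkn1a window of its upstream start lies at chr17:29090729-29091028 on the plus strand, the Mdm2 window at chr10:117710709-117711008 on the minus strand and the Trp53 window at chr11:69580109-69580408 on the plus strand.
Cdkn1a: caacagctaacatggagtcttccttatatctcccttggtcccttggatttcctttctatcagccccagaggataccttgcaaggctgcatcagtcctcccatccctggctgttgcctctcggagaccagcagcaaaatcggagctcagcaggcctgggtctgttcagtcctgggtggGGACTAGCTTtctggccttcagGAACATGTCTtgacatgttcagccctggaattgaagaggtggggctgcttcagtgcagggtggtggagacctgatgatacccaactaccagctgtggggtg
Mdm2: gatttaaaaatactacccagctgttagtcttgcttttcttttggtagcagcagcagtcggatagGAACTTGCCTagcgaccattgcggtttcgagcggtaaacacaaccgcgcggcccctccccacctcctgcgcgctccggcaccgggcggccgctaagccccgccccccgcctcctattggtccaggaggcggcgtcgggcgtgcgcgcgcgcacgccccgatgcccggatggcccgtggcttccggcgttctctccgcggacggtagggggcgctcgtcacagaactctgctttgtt
Trp53: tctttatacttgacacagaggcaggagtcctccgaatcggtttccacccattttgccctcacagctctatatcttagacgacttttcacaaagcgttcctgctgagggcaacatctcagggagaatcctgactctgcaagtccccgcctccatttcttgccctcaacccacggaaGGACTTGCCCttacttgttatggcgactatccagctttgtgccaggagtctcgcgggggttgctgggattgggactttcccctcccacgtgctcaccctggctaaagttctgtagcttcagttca
The Cdkn1a window held 2 half-sites, starting 73 and 51 bases before the annotated start and separated by 12 bases. The letters directly after the second of them, tgacatgttc, differ from the consensus at their first base only and so were not marked. Which of these letters act as a pair was not tested. Of all 32851 windows of the same length, 24 (0.0731%) held 2 half-sites no more than 13 bases apart, and 2745 (8.36%) held at least 1. Single matches stood 186 bases before the start of Mdm2, 185 bases before that of Ccng1, 75 bases before that of Trp53 and 40 bases before that of Gadd45a. No match was present in the windows of Phlda3, Gdf15 and Gadd45b or at the second annotated start of Cdkn1a. These matches describe letters in a window and were not tested as binding sites.

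The deposited values were estimated counts per gene, which need not be whole because reads that fit several transcripts are shared. Totals ran from 5397370 (glutamine replicate 2) to 10223461 (vehicle replicate 4) in TECs and from 20225246 to 21878446 in PMN. Levels are given as CPM, counts per 1000000 counts after scaling by edgeR's TMM method. In TECs the sort marker Prom1 had 409 to 783 counts and Ptprc, the gene of CD45, had 1 to 25. The summed tubule markers, led by the phosphate transporter Slc34a1, ran from 5052 to 8419 CPM with vehicle and from 5798 to 7274 CPM with glutamine. Of 10 tubule markers 7 were higher, Slc34a1 at a mean of 1663 CPM with vehicle and 2419 CPM with glutamine. Of the 10, 3 had an edgeR unadjusted p-value below 0.05 (1 higher and 2 lower). Over all TEC genes tested this share was 12.7%, with 7.23% higher and 5.51% lower. Groups did not overlap for 3 of the 10 tubule markers, against 18.8% of all TEC genes. The neutrophil markers, led by Cxcr2 at a mean of 76.2 CPM with vehicle and 57.2 CPM with glutamine, summed to 102 to 243 and 118 to 250 CPM in TECs, 4 of 5 tested being higher, and Elane was at 0 in every TEC library. The macrophage and dendritic cell markers summed to 45.2 to 91.2 CPM with vehicle and 68.7 to 146 CPM with glutamine in TECs. Of 9 tested 7 were higher, with a median log2 fold change of 0.69. In the higher direction, 1 of the 9 had an edgeR unadjusted p-value below 0.05 and 1 had groups that did not overlap. Over all TEC genes those shares were 7.23% and 9.01% in that direction. The platelet and red cell markers summed to 809 to 4421 and 987 to 6731 CPM. The part of these marker lists in the results was not tested. In PMN the neutrophil markers, led by S100a8, summed to between 20728 and 70070 CPM, and the macrophage and dendritic cell markers, led by Cd74, to between 11937 and 26471 CPM with none of that list at 0. Replicates differed far more in PMN than in TECs, with a common biological coefficient of variation of 1.40 against 0.367. Among PMN genes with at least 1000 counts in some library, 1504 of 5864 (25.6%) were at 0 in another library, against 1 of 1901 (0.0526%) in TECs.

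In TECs, 6 of the 10 genes were higher and 4 were lower with glutamine, and none passed the test. Trp53 was lower by 1.73-fold, Cdkn1a and Mdm2 had positive log2 fold changes of 0.32 and 0.35, and that of Ccng1 was -0.03. The groups overlapped for every one of the 10, whereas 18.8% of all 14734 genes tested had groups that did not overlap. An adjusted p-value (edgeR's quasi-likelihood method, Benjamini-Hochberg) below 0.05 was reached by 0 of the 10 and by 0% of all genes. An unadjusted p-value below 0.05 was reached by 0 of the 10 and by 12.7% of all genes (5.51% lower and 7.23% higher with glutamine). DESeq2 passed 2.09% of all genes and 0 of the 10. In simulated TEC counts the same test recovered 86% of genes changed 4-fold but 15% of those changed 2-fold, so that changes of the size fitted here were mostly below what 3 libraries per group could call. The p-values set the difference between groups against the spread between these libraries, and bulk RNA cannot tell fewer cells of a type from less RNA per cell.

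**Figure D1:**
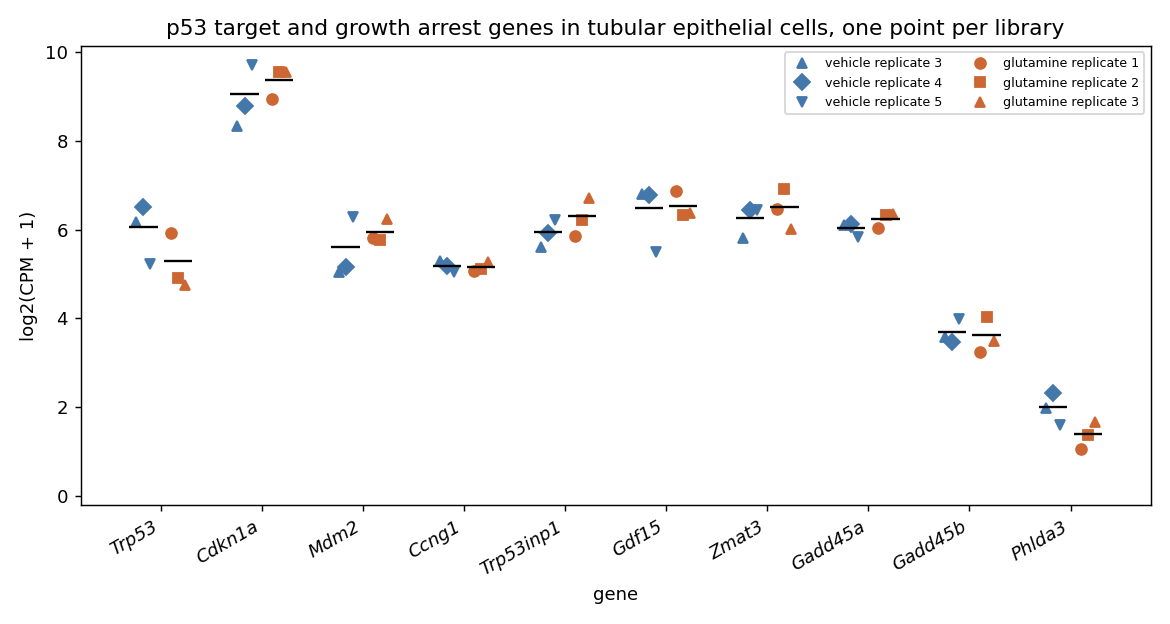
Level of each of the 10 genes in tubular epithelial cells, as log2(CPM + 1) on the vertical axis, with 1 point per library, vehicle in blue, glutamine in orange, and a black line at the level of the group's mean CPM. The groups overlap for every gene, and vehicle replicate 5 stands at the top for Cdkn1a and Mdm2.

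Trp53 (chromosome 11, 69580359 to 69591873, plus strand, GRCm38) had 70.8, 90.6 and 36.4 CPM in vehicle replicates 3, 4 and 5 and 59.5, 28.9 and 25.8 CPM in glutamine replicates 1, 2 and 3. Vehicle replicate 5 lay below glutamine replicate 1, so that the groups overlapped. The means were 65.9 ± 27.5 CPM with vehicle and 38.05 ± 18.6 CPM in the glutamine group (SD, n = 3). The log2 fold change was -0.79 (SE 0.38, 95% interval -1.63 to 0.05, edgeR adjusted p = 0.417). Trp53-ps, a pseudogene that could share its reads, had 2 counts in vehicle replicate 5 and 0 in the other TEC libraries. Among the 10 genes in TECs it had the second largest difference in size after Phlda3 and the smallest unadjusted p-value, 0.0631 in edgeR's test.

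Mdm2 (chromosome 10, 117688875 to 117710758, minus strand), the ubiquitin ligase that removes p53, had 32.3, 34.8 and 77.2 CPM with vehicle and 55.5, 53.2 and 74.6 CPM with glutamine. The 3 glutamine libraries lay above vehicle replicates 3 and 4 and below vehicle replicate 5. Its log2 fold change was 0.35 (SE 0.33, 95% interval -0.38 to 1.07, edgeR adjusted p = 0.684).

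Cdkn1a (chromosome 17, 29090976 to 29100727, plus strand), which encodes the inhibitor of cyclin-dependent kinases p21, showed the same order of libraries as Mdm2 at its extremes. It had 323, 436 and 831 CPM in vehicle replicates 3, 4 and 5 and 492, 746 and 748 CPM in the glutamine libraries. All 3 glutamine libraries again lay between vehicle replicates 4 and 5. The means were 530 ± 267 and 662 ± 147 CPM (SD, n = 3), with a log2 fold change of 0.32 (SE 0.33, 95% interval -0.39 to 1.04, edgeR adjusted p = 0.703).

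Of the other arrest genes, none passed the test either. Ccng1, which encodes the p53 target cyclin G1, had the narrowest spread of the 10, with its highest library 1.21 times its lowest, and a log2 fold change of -0.03 (95% interval -0.50 to 0.45). Gadd45a, a stress sensor that restrains the cell cycle and aids DNA repair, had 67.9, 68.9 and 56.1 CPM with vehicle and 64.1, 79.7 and 80.6 CPM with glutamine. Only glutamine replicate 1 of Gadd45a lay within the vehicle range, and the log2 fold change was 0.22 (SE 0.21, 95% interval -0.24 to 0.67, edgeR adjusted p = 0.682). It was 0.13 without vehicle replicate 5 and 0.041 with library size only. Gadd45b, its relative, had 10.03 to 14.9 CPM with vehicle and 8.53 to 15.5 CPM with glutamine, with a log2 fold change of -0.07 (95% interval -0.83 to 0.68). Exons of Gadd45a share 337 bases (19.1% of its exon bases) with E230016M11Rik on the opposite strand, which had 17 to 85 counts in TECs. Exons of Cdkn1a share 273 bases (7.68%) with AC167363.2 on the opposite strand. Whether the libraries keep strand is not stated in the sources used here, so reads from these shared bases cannot be assigned with certainty.

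Trp53inp1, a stress-induced partner of p53 that also takes part in autophagy, had 47.7, 59.4 and 73.7 CPM with vehicle and 56.6, 72.9 and 104 CPM with glutamine. Glutamine replicate 3 alone lay above the vehicle range, and its log2 fold change of 0.37 (SE 0.27, 95% interval -0.22 to 0.96, edgeR adjusted p = 0.588) was 0.10 without that library. Zmat3, an RNA-binding p53 target, had 55.2 to 85.7 CPM with vehicle and 63.9 to 120 CPM with glutamine and a log2 fold change of 0.26 (95% interval -0.35 to 0.86). Phlda3, a p53 target that blocks Akt signalling at the membrane, was the lowest of the group. It had 30, 45 and 20 counts with vehicle and 9, 8 and 20 counts with glutamine, or 3.01 ± 0.997 and 1.63 ± 0.556 CPM (SD, n = 3). Its log2 fold change of -0.88 carried the widest interval in TECs, from -2.31 to 0.55 (SE 0.65, edgeR adjusted p = 0.5995).

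Gdf15, a secreted stress hormone of the TGF-beta family, had 111, 109 and 44.0 CPM in vehicle replicates 3, 4 and 5 and 115, 78.9 and 81.6 CPM in the glutamine libraries. Vehicle replicate 5 alone was low, and the other 5 libraries lay between 78.9 and 115 CPM. The log2 fold change was 0.06 (SE 0.33, 95% interval -0.66 to 0.79, edgeR adjusted p = 0.954).

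For Trp53, Cdkn1a and Mdm2 in TECs the unadjusted p-value depended on single libraries. Vehicle replicate 5 was the highest of all 6 TEC libraries for Cdkn1a and Mdm2 and the lowest for Gdf15, Gadd45a and Ccng1. Without vehicle replicate 5, Cdkn1a had a log2 fold change of 0.80 (SE 0.26, edgeR unadjusted p = 0.0107, adjusted p = 0.160). Without it, Mdm2 had one of 0.86 (SE 0.25, edgeR unadjusted p = 0.00600, adjusted p = 0.135) and Trp53 one of -1.09 (SE 0.35, edgeR unadjusted p = 0.0106, adjusted p = 0.159). In that fit 17.7% of all genes had an unadjusted p-value below 0.05, against 3 of the 10. Without glutamine replicate 1, Trp53 had a log2 fold change of -1.27 (edgeR unadjusted p = 0.00756, adjusted p = 0.373). In the other direction, the log2 fold change was 0.06 for Cdkn1a (edgeR unadjusted p = 0.856) and 0.12 for Mdm2 (edgeR unadjusted p = 0.729) without vehicle replicate 3. That of Mdm2 was also 0.16 without vehicle replicate 4 and 0.17 without glutamine replicate 3, and that of Cdkn1a 0.20 without vehicle replicate 4. Trp53 had -0.49 without vehicle replicate 4 (edgeR unadjusted p = 0.255) and -0.57 without glutamine replicate 3 (edgeR unadjusted p = 0.197). Over all alternatives the adjusted p-value ran from 0.160 to 0.983 for Cdkn1a, from 0.135 to 0.956 for Mdm2 and from 0.0967 to 0.794 for Trp53. The Ptprc count of vehicle replicate 5 was 1, against 9 to 25 in the other TEC libraries, and the part of residual leukocytes in these differences was not tested.

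**Figure D2:**
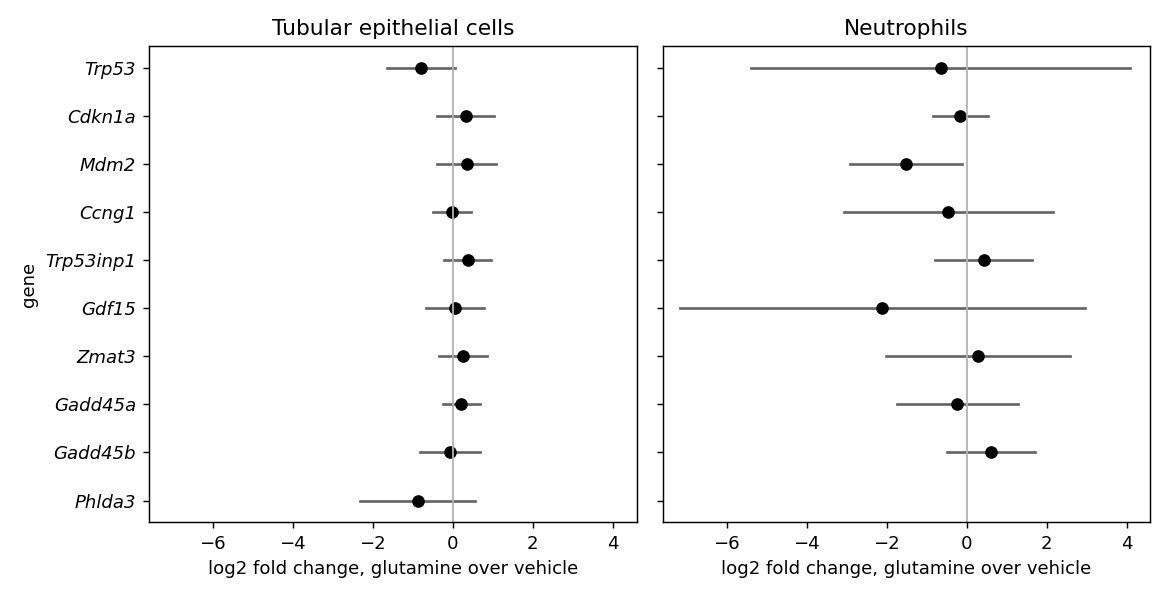
Log2 fold change of each gene, glutamine over vehicle, on the horizontal axis in tubular epithelial cells and in neutrophils, with the edgeR estimate as a point and its 95% interval as a line. In tubular epithelial cells every interval includes 0, and in neutrophils only that of Mdm2, from -2.92 to -0.11, does not, while Phlda3 was not tested there.

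In PMN, 6 of the 9 genes tested were lower and 3 were higher with glutamine, and none passed the adjusted test. Mdm2, lower by 2.86-fold, was the 1 gene of the 9 whose groups did not overlap, a share near the 10.5% of all PMN genes. Cdkn1a, the highest of the 10 in CPM there, differed by a log2 fold change of -0.15. Phlda3 had 0 counts in all 6 PMN libraries, which allows up to 3 counts, or 0.137 to 0.158 CPM in a library, for counting error only.

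An adjusted p-value below 0.05 in edgeR was reached by 0 of the 9 and by 0% of all 10130 PMN genes tested, and DESeq2 passed 0 of the 9 and 2.34% of all genes. At an unadjusted p-value below 0.05, 1 of the 9 was called, against 3.42% of all genes (1.37% lower and 2.04% higher with glutamine). Groups did not overlap for 1 of the 9, lower with glutamine, against 4.63% of all genes in that direction and 5.87% in the other. In simulated PMN counts the test recovered 0% of genes changed 2-fold or 4-fold, so a count of 0 says little in these cells.

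**Figure D3:**
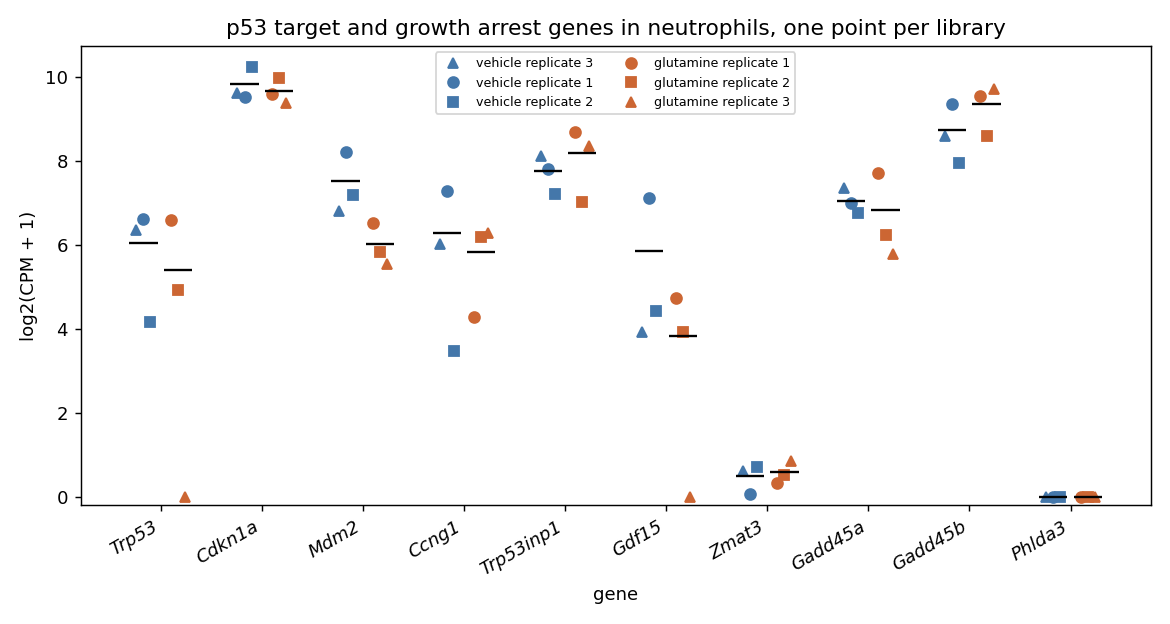
Level of each of the 10 genes in neutrophils, as log2(CPM + 1) on the vertical axis, with 1 point per library, vehicle in blue, glutamine in orange, and a black line at the level of the group's mean CPM. Mdm2 alone has its 3 glutamine libraries below its 3 vehicle libraries, while Trp53 and Gdf15 each have a glutamine library at 0.

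Mdm2 had 293, 143 and 110 CPM in PMN vehicle replicates 1, 2 and 3 and 89.8, 56.1 and 45.6 CPM in glutamine replicates 1, 2 and 3. The lowest vehicle library still lay above the highest glutamine library. The means were 182 ± 97.2 and 63.8 ± 23.1 CPM (SD, n = 3), with a log2 fold change of -1.51 (SE 0.59, 95% interval -2.92 to -0.11, edgeR unadjusted p = 0.0382, adjusted p = 0.99996). Its fold change was negative in every alternative run, from -1.85 to -1.02, with adjusted p-values from 0.128 to 0.9999 and unadjusted ones from 0.00459 to 0.165. Without vehicle replicate 1, its highest library, the log2 fold change was -1.02 and the unadjusted p-value 0.165. The unadjusted p-value in edgeR's test was 0.0536 without vehicle replicate 2, 0.0995 without glutamine replicate 2 and 0.0965 without glutamine replicate 3.

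Trp53 itself could not be placed in PMN. It had 97.0, 16.8 and 80.5 CPM with vehicle and 94.9, 29.0 and 0 CPM with glutamine, from 1935, 368, 1691, 1802, 616 and 0 counts. The library at 0, glutamine replicate 3, was also at 0 for Gdf15 and for 5.34% of the PMN genes that reached 1000 counts in some library. The log2 fold change of Trp53 was -0.65 with a 95% interval from -5.38 to 4.08 (edgeR adjusted p = 0.99996). It was -2.17 without glutamine replicate 1, -0.08 without glutamine replicate 3 and -3.59 with limma-voom. Gdf15 had 136, 20.2 and 14.1 CPM with vehicle and 25.6, 14.1 and 0 CPM with glutamine, a log2 fold change of -2.10 (95% interval -7.15 to 2.95) that was -0.39 without vehicle replicate 1. Ccng1 ranged from 10.03 to 154 CPM within the vehicle group alone, more than its range over the glutamine group, 18.3 to 76.2 CPM.

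Cdkn1a was the steadiest of the genes in PMN. It had 731, 1192 and 785 CPM with vehicle and 767, 1007 and 660 CPM with glutamine, the highest library being 1.81 times the lowest. Its log2 fold change of -0.15 had a 95% interval from -0.85 to 0.54 (SE 0.29, edgeR adjusted p = 0.99996). Gadd45b had 649, 244 and 383 CPM with vehicle and 737, 383 and 833 CPM with glutamine. Its log2 fold change was 0.61 (SE 0.46, 95% interval -0.48 to 1.71), with 0.33 without vehicle replicate 2 and 1.01 without vehicle replicate 1. Gadd45a had 126, 106 and 161 CPM with vehicle and 209, 73.5 and 54.2 CPM with glutamine, its glutamine libraries lying on both sides of the vehicle range. Trp53inp1 had 222, 146 and 275 CPM with vehicle and 413, 129 and 323 CPM with glutamine, a log2 fold change of 0.43 (95% interval -0.78 to 1.64) that ran from 0.046 without glutamine replicate 1 to 0.74 without glutamine replicate 2. Zmat3 was nearly silent, with 1 to 16 counts in a library.

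The genes of the set differed widely in level within each cell type, and their order differed between the cell types. Per kilobase of exon, and as a mean over 6 libraries, Cdkn1a led in TECs with 168 CPM per kilobase (range 90.9 to 234), and its range did not touch that of Gdf15, next with 48.6 (23.8 to 62.2). Gdf15 and Gadd45a (39.4, range 31.8 to 45.7) overlapped, and both lay above the range of Trp53. Trp53 (12.9), Mdm2 (10.7), Trp53inp1 (10.7), Ccng1 (9.91), Gadd45b (7.36) and Zmat3 (7.25) formed a run in which each overlapped its neighbour, and Phlda3 (1.49, range 0.693 to 2.59) lay below all of them. In PMN, Gadd45b led with 339 CPM per kilobase (154 to 524), overlapping Cdkn1a with 241 (186 to 335). Gadd45a followed with 69.0 (30.7 to 118), then Trp53inp1 with 38.8, Mdm2 with 24.2, Gdf15 with 18.9, Ccng1 with 18.7 and Trp53 with 13.1, each overlapping the next. From Trp53inp1 on, the order differed by group. With vehicle Mdm2 was at 35.9, above Trp53inp1 at 33.1 and Gdf15 at 30.7. With glutamine Mdm2 was at 12.6, below Ccng1 at 15.8, and Gdf15 was at 7.15, below Trp53 at 10.2. Zmat3 was at 0.0394 CPM per kilobase and Phlda3 at 0.

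**Figure D4:**
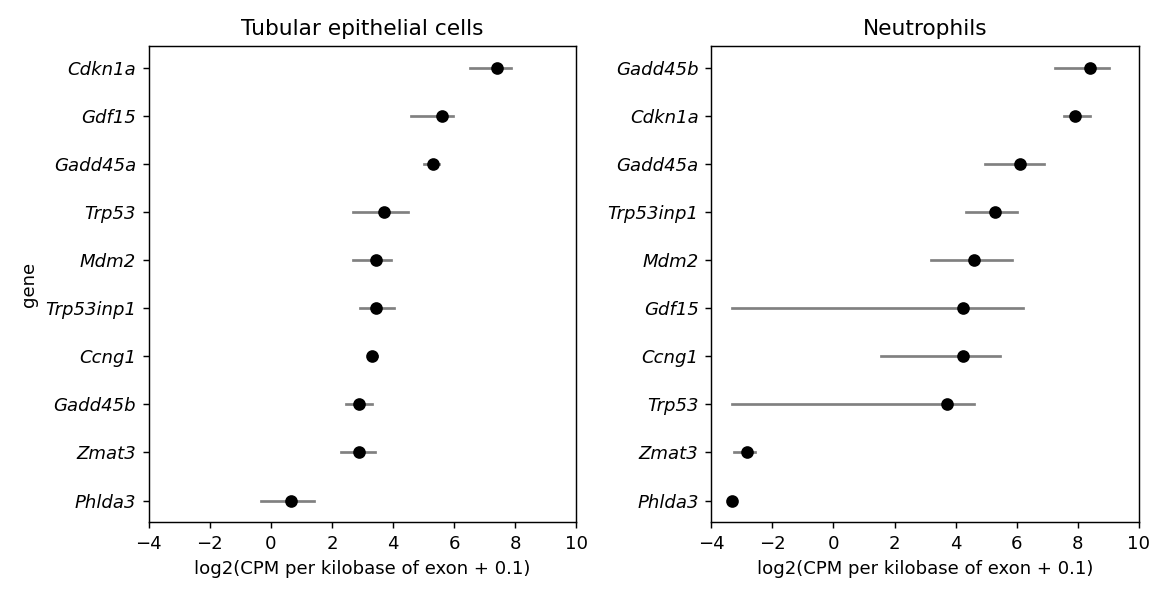
Level of each gene per kilobase of exon, as log2(CPM per kilobase + 0.1) on the horizontal axis, with the mean over 6 libraries as a point and the lowest and highest library as the ends of the line, sorted within each cell type. Cdkn1a is far above the rest in tubular epithelial cells, and Gadd45b and Cdkn1a lead in neutrophils, where Trp53 and Gdf15 reach down to a library at 0.

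The order of the Gadd45 pair was opposite in the 2 cell types. In TECs the level of Gadd45a per kilobase was 3.40 to 7.04 times that of Gadd45b, higher in 6 of 6 libraries. In PMN the level of Gadd45b per kilobase was 2.545 to 17.05 times that of Gadd45a, higher in 6 of 6 libraries. TECs and PMN were deposited as separate tables and were not normalised together, but a ratio within a library does not depend on the scaling between libraries. The shared exon bases of Gadd45a with E230016M11Rik, which had 0 to 199 counts in PMN, apply to these ratios as well.

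Across the 6 TEC libraries the level of Cdkn1a was matched most closely by Rreb1, a zinc finger transcription factor, by Atf4, the transcription factor of the integrated stress response, and by Plekhm2. The measure was the root mean square difference of log2(CPM + 0.5) after centring each gene on its mean over the 6 libraries, and it was 0.0636 for Rreb1, 0.0994 for Atf4 and 0.104 for Plekhm2. Atf4 had 393, 554 and 992 CPM in vehicle replicates 3, 4 and 5 and 719, 923 and 899 CPM in the glutamine libraries, with vehicle replicate 5 again on top. Among the p53 genes Mdm2 stood nearest to Cdkn1a, at 0.219 and rank 119 of the genes tested, followed by Trp53inp1 at 0.275 and rank 369. Trp53 stood at 1.12 and rank 13684 and Gdf15 at 0.919 and rank 12082, near the far end. These likenesses describe 6 libraries of 1 sort, of unequal depth, and no test was made of them.

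The rest of the p53 network was followed through 48 further genes in lists of regulators, arrest genes, death targets and repair or metabolism targets. In TECs 42 of them were tested, 24 higher and 18 lower, their median log2 fold change being 0.06 beside 0.01 over all genes tested. In edgeR's test 0 had an adjusted p-value below 0.05 and 2 an unadjusted one, both lower with glutamine, and DESeq2 passed 0. Over all TEC genes 12.7% had such an unadjusted p-value, 5.51% in the lower direction, so the count of 2 in 42 was no more than the background. The first was Atm, the kinase that signals DNA breaks to p53, with 13.7, 12.1 and 6.42 CPM with vehicle and 7.45, 1.81 and 2.85 CPM with glutamine (log2 fold change -1.39, unadjusted p = 0.0259, adjusted p = 0.329). The second was Bax, the pore-forming death protein of mitochondria, with 19.8, 16.9 and 4.38 CPM with vehicle and 1.68, 7.63 and 3.18 CPM with glutamine (log2 fold change -1.76, unadjusted p = 0.0184, adjusted p = 0.298). For both, vehicle replicate 5 lay within the glutamine range. On leaving out a library Atm ran from -2.17 (without glutamine replicate 1) to -1.07 and Bax from -2.49 (without glutamine replicate 2) to -1.37. The unadjusted p-value was above 0.05 without vehicle replicates 3 or 4 or glutamine replicates 2 or 3 for Atm (0.0663 to 0.0833), and without vehicle replicates 3 or 4 or glutamine replicates 1 or 3 for Bax (0.0526 to 0.0728). The 9 regulators tested had a median of 0.28, the 12 arrest genes -0.01, the 11 death targets -0.09 and the 10 repair and metabolism targets 0.16.

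Cell cycle genes are known to fall when cells arrest, and none of them passed the test in TECs. Of 11 tested, 8 were lower with glutamine and 3 higher, with a median log2 fold change of -0.50, and 0 passed the adjusted threshold of 0.05, whether by edgeR or by DESeq2. Endothelial markers in TECs were on the same side, 6 lower and 2 higher of 8 tested, with a median of -0.24. They summed to 364 to 588 CPM with vehicle and 361 to 504 CPM with glutamine, and their part in the result was not tested. Mcm6, a subunit of the replicative helicase, had 27.6, 17.3 and 16.2 CPM with vehicle and 9.13, 10.8 and 10.3 CPM with glutamine (log2 fold change -1.01, SE 0.31, adjusted p = 0.243). Ccna2, cyclin A2, had 24.2, 28.3 and 24.0 CPM with vehicle and 16.3, 12.3 and 16.6 CPM with glutamine (log2 fold change -0.76, SE 0.26, adjusted p = 0.274). The unadjusted p-value of Ccna2 was 0.0592 without vehicle replicate 4 and 0.0502 without glutamine replicate 2. These 2 were the genes of the list with an unadjusted p-value below 0.05, in a table where 5.51% of all genes were so called in the lower direction. Groups did not overlap for 4 of the 11 in the lower direction, against 9.81% of all genes, and for 2 in the higher direction, against 9.01%. The latter were Mki67 and Top2a, named after their values were seen, with 4 to 17 and 2 to 30 counts in a library.

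Gdf15 and Gadd45a also respond to the stress factor ATF4, and the ATF4 genes were split. Of 10 tested in TECs, 4 were higher and 6 lower, with a median of -0.31, and 3 had an edgeR unadjusted p-value below 0.05, all lower with glutamine, against 5.51% of all genes in that direction. Psat1, an enzyme of serine synthesis, had 128, 121 and 78.3 CPM with vehicle and 41.0, 66.3 and 58.0 CPM with glutamine (log2 fold change -0.99, SE 0.26, adjusted p = 0.217). It passed the threshold in DESeq2, with a log2 fold change of -0.98, as 1 of the 10, against 2.09% of all genes. Phgdh, the enzyme that starts the same pathway, had a log2 fold change of -0.86 (adjusted p = 0.269), with an edgeR unadjusted p-value of 0.0551 without vehicle replicate 5. Chac1, which degrades glutathione, had one of -0.78 (adjusted p = 0.369). The unadjusted p-value of Chac1 was 0.0503 when scaled without predicted genes and 0.0694 to 0.138 without vehicle replicates 3 or 4 or glutamine replicates 1 or 2, and its log2 fold change was -1.24 without glutamine replicate 3. Atf4 itself had a log2 fold change of 0.39, in the other direction (adjusted p = 0.616).

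In PMN, 31 of the 48 further p53 genes were tested, 13 higher and 18 lower, their median log2 fold change being -0.20 beside 0.00 over all genes. All 6 regulators tested were lower with glutamine, with a median of -0.85, and 2 of them had an edgeR unadjusted p-value below 0.05 and groups that did not overlap. Over all PMN genes these shares were 1.37% and 4.63% in the lower direction. Mdm4, the partner of Mdm2 in holding p53 down, had 109, 94.7 and 155 CPM in vehicle replicates 1, 2 and 3 and 33.9, 15.6 and 16.0 CPM in the glutamine libraries (log2 fold change -2.46, SE 0.71, unadjusted p = 0.0111, adjusted p = 0.895). Ppm1d, a phosphatase that switches p53 signalling off, had 1075, 76 and 964 counts with vehicle and 0, 0 and 3 counts with glutamine (unadjusted p = 0.0114, adjusted p = 0.895). Without vehicle replicate 3 the unadjusted p-value of Mdm4 was 0.0540 in edgeR's test. Endothelial markers were on the same side, 0 of 4 tested being higher, with a summed level of 2.71 to 2268 CPM with vehicle and 13.1 to 89.4 CPM with glutamine, and Kdr, their highest, at a mean of 206 CPM with vehicle and 0 CPM with glutamine. The part of other blood or vessel cells in the PMN values was not tested.

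Of the arrest genes in PMN, 7 of 9 tested were higher with glutamine, with a median log2 fold change of 0.69, and 1 had an edgeR unadjusted p-value below 0.05, against 2.04% of all genes in that direction. Further marker lists were on the same side in PMN. Of the macrophage and dendritic cell markers 8 of 10 were higher (11937 to 23585 CPM summed with vehicle, 12499 to 26471 with glutamine), of the tubule markers 5 of 6 (850 to 2607 and 1327 to 2127 CPM), and of the platelet and red cell markers 5 of 6 (546.2 to 1088 and 499.6 to 910 CPM). Their median log2 fold changes were 0.38, 0.61 and 1.15, and their part in the result was not tested. Lcn2, the gene of neutrophil gelatinase-associated lipocalin, led the tubule list in PMN, at a mean of 1151 CPM with vehicle and 1617 CPM with glutamine. The summed level of the tubule list therefore need not come from tubule cells. Btg2, an antiproliferative p53 target and the highest of the list, had 1027, 943 and 854 CPM in vehicle replicates 1, 2 and 3 and 1471, 1415 and 2092 CPM in the glutamine libraries. All 3 glutamine libraries lay above the vehicle libraries, as they did for 5.87% of all genes (log2 fold change 0.82, SE 0.23, edgeR unadjusted p = 0.00941, adjusted p = 0.856). The 8 death targets had a median of -0.09 and the 8 repair and metabolism targets one of -0.39. Of 16 cell cycle genes 4 were tested, 3 lower and 1 higher, with a median log2 fold change of -1.34. None of the 4 had an edgeR unadjusted p-value below 0.05. Ccne1, Ccne2, Plk1 and Bub1 were at 0 in every PMN library. The 5 ATF4 genes tested had a median of 0.49, with 3 higher and 2 lower. Mdm4, Ppm1d and Btg2 passed the threshold in DESeq2, as did 2.34% of all genes, and not in edgeR.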

How the data were processed

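Bulk RNA was reverse transcribed from poly(A) tails and sequenced in 6 TEC and 6 PMN libraries. The methods give a read length of 50 bases for RNA of the sorted cells, and this was not checked for PMN. Estimated counts for each gene symbol, without normalization, were what the authors deposited. The submitters' processing notes name Trim Galore 0.6.4, Salmon 1.0.0, DESeq2 and mm10, and the annotation is not given in the sources used here. The deposited PMN table, whose unit is other than plain counts, held estimated counts that a spreadsheet program had altered. There 3.20% of cells had extra points and 0.391% had become dates, among them 1 cell of Zmat3, and these were decoded. It had been planned as plain counts. Its 2 columns per library correlated at 0.995 to 0.996 (log2), against 0.771 to 0.824 between libraries, and were averaged as 1 replicate. What the 2 columns are is not given in the sources used here, so PMN counts and totals are means over them. No column was left out.

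Counts were rounded and tested within each cell type with edgeR 4.0.16 (R 4.3.3, TMM, default expression filter, quasi-likelihood test), and p-values were adjusted by Benjamini-Hochberg over all genes tested, with a threshold of 0.05. The SE came from the fold change and the F statistic. Alternatives were DESeq2 1.42.0, limma-voom (limma 3.58.1), other scalings and filters, single PMN columns and fits without each library. The test was tried on simulated data with 200 changed genes, 14219 tested in TECs and 9253 in PMN. These counts were drawn independently for each gene in both cell types. Exact permutation of 3 against 3 libraries cannot go below p = 0.1. Positions and exon lengths came from GENCODE M21 (GRCm38), matched by symbol. Named were all 10 genes, up to 4 genes per other list with an unadjusted p-value below 0.05, the highest marker and the markers at 0 of a list, and the 3 genes most like Cdkn1a. The genes and lists were chosen with earlier results of these data known.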

Additional observations from a re-analysis of the deposited data

How the results depend on the processing

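No paired analysis was made, because the methods describe random assignment of mice to groups and name no pairs. Replicate numbers do not mark pairs: number 3 is the single one present in both TEC groups, and PMN libraries were numbered here only to name them. The count of TEC genes past the threshold, 0 in edgeR, was 308 with DESeq2 (76.3% of them higher), 425 without the expression filter (72.7% higher) and 0 to 36 when each library was left out, reaching 36 without glutamine replicate 2 and 4 without vehicle replicate 5. In PMN it was 237 with DESeq2, and 0 in every fit without 1 library. Of the 10 genes followed, none passed the threshold under any alternative run. At an unadjusted p-value below 0.05, 1 of the 10 TEC genes (Trp53) was called with library size only, with DESeq2 and without the filter. Of all TEC genes 15.5%, 13.6% and 10.5% were so called in those fits, in that order. When a library was left out 0 to 3 of the 10 were called, against 8.26% to 17.7% of all genes. Trp53 was called also without glutamine replicate 1, where 10.2% of all genes were. In PMN 0 of the 9 was called with limma-voom, against 6.44% of all genes. When a library was left out 0 to 1 was called, against 4% to 4.71% of all genes: Mdm2 was lost without vehicle replicates 1 or 2 or glutamine replicates 2 or 3. Of the 139 TEC and 140 PMN values of the genes under alternatives, 9 and 6 changed sign, the cause of which was not tested. In TECs Gdf15 was -0.13 with library size only and -0.26 to 0.26 on leaving out a library, Ccng1 0.027 when scaled without predicted, Rik and receptor genes and -0.098 to 0.038 on leaving out a library, Gadd45b -0.34 to 0.11 and Zmat3 -0.0065 to 0.45. Psat1 passed in TECs with DESeq2 (-0.98) and without the filter (-1.02), Bax without the filter (-1.79), and Mdm4 (-2.51) and Btg2 (0.75) in PMN with DESeq2. The median of the 10 TEC genes, 0.14, was -0.04 with library size only, where the median of all genes was -0.16, and 0.064 to 0.19 on leaving out a library, lowest without vehicle replicate 3 and 0.076 without glutamine replicate 2. With at least 10 counts required in every library, which left out Phlda3, that median was 0.225. In PMN Ccng1 was 0.11 with limma-voom and -0.98 to 0.55 on leaving out a library, Zmat3 -0.26 to 0.77, Cdkn1a -0.38 to 0.088 and Gadd45a -1.06 to 0.089. Glutamine replicate 2, the shallowest TEC library, limits Phlda3 most, since 3 counts there are worth 0.603 CPM.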
